A study of Homo sapiens with 12 samples.

Results

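The genes described here are the gasdermin, inflammasome and inflammatory caspase genes GSDMD, GSDME, CASP1, CASP4, CARD16, NLRP1, NLRP3, PYCARD and IL18, taken by symbol from the count table of 786-O cells. Of these 9 genes, 8 were measured among the 17085 genes of the table and all 8 passed the filter on low counts, which left 12841 genes for testing. PYCARD, the adaptor that joins sensors to caspase-1, was not analysed here. 786-O is an established human clear cell renal carcinoma line, and the sample records give its genotype as WT. The 4 groups, of 3 libraries each, came from cells kept for 24 h in the vehicle DMSO, in the mTOR inhibitor everolimus, in the DNA methyltransferase inhibitor SGI-1027 (1.5 µM), or in everolimus and SGI-1027 together. For everolimus alone the treatment labels and the published methods give 5 µM but the treatment protocol gives 10 µM, while the combination is given as 5 µM everolimus with 1.5 µM SGI-1027 in each source, so any comparison that involves the everolimus group may set unequal everolimus doses side by side. A single cell line was used, and no label states whether libraries within a group are separate cultures, so the p-values measure only the spread between these libraries.

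Pyroptosis is a lytic form of cell death carried out by gasdermins. Inflammasome sensors such as NLRP1 and NLRP3 assemble on danger signals and, directly or through an adaptor, recruit caspase-1, which matures interleukin-18 and cleaves gasdermin D. Caspase-4 senses cytosolic lipopolysaccharide and cleaves gasdermin D as well, whereas gasdermin E is cleaved in apoptotic cells, so that an apoptotic signal can end in pyroptosis. These steps are proteolytic, and the libraries measured transcripts only.

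The upstream sequences of 3 of the genes are shown because 1 of the drugs is a DNA methyltransferase inhibitor, and these enzymes act on CpG dinucleotides, which are printed in capitals. Of the 9 genes, 4 had an entry in the RefSeq promoter table (GSDME, CASP4, NLRP3 and PYCARD). The 250 bases before the annotated start are given 5′ to 3′ on the gene's own strand in build GRCh38.p14, for GSDME at chr7:24757465-24757714 on the minus strand, for CASP4 at chr11:104968575-104968824 on the minus strand and for NLRP3 at chr1:247415923-247416172 on the plus strand.
GSDME: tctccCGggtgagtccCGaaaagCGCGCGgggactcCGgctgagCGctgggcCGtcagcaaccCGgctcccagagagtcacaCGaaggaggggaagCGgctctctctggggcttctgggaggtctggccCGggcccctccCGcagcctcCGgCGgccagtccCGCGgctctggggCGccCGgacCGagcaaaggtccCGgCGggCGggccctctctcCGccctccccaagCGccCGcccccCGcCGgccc
CASP4: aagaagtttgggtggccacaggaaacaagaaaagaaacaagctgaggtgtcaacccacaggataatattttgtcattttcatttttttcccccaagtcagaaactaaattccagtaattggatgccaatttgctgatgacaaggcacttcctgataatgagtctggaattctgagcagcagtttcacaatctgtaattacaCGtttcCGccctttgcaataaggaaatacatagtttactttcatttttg
NLRP3: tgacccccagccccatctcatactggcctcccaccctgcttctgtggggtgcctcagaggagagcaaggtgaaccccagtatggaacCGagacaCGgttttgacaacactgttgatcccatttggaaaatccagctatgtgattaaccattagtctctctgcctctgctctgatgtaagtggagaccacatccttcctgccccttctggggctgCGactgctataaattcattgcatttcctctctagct
These stretches held 28 CpGs for GSDME, 2 for CASP4 and 3 for NLRP3. In the whole window of 300 bases, which runs 50 bases past the start, GSDME had 35 CpGs, more than 85.9% of all 35116 promoters in the table, CASP4 had 3, more than 18.2%, and NLRP3 had 5, more than 29.6%. Methylation was not measured in these libraries. Searched on both strands, the interferon-type core GAAANNGAA, the STAT-type motif TTCNNNGAA and the E-box CACGTG were in none of the 3 windows, and they occur in 8.11%, 7.66% and 7.26% of all promoters. This says only that these letters are not in these windows.

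A second sequence bears on how far counts can be assigned. CARD16 encodes a CARD-only protein that resembles the prodomain of caspase-1 and binds it, and both genes lie on chromosome 11, CASP1 at chr11:105025443-105035250 and CARD16 at chr11:105041326-105101431 in GENCODE v29. The longest stretch identical between their coding sequences was 144 bases, at coding bases 62 to 205 of a CASP1 transcript and 110 to 253 of a CARD16 transcript.
CASP1 and CARD16: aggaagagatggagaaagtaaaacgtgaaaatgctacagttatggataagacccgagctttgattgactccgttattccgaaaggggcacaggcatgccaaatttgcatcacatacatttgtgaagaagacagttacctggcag
Of the 75-base windows of annotated CARD16 coding transcripts, 7.56% also occur in CASP1, and 3.11% of those of CASP1 occur in CARD16. None of the other members' transcripts shared such a window with another gene on either strand, except PYCARD with PYCARD-AS1. How the authors assigned reads that match both genes is not given in the sources used here, so single-gene counts of CASP1 and CARD16 are less certain than those of the other genes, and values for their sum are given where they change a call. CASP1 averaged 154 counts per library and CARD16 38.1, so the sum mostly follows CASP1 and does not test CARD16 alone.

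Library totals ran from 37046231 to 41516976 counts with a median of 38483538.5. DMSO replicate 1 and SGI-1027 replicate 3 stood apart from the other libraries of their groups: the mean chi-square per gene against a groupmate was 10.1 to 12.9 for the former and 16.1 to 16.4 for the latter, and 3.04 to 5.46 for every pair without them. The results that differ without these libraries are given with both values. All 11 renal carcinoma line markers looked for were present in every library, among them PAX8 and VIM. The 9 blood cell markers summed to 5.29 to 6.09 CPM (counts scaled to library size) in DMSO, 5.67 to 6.48 under everolimus, 4.12 to 5.00 under SGI-1027 and 3.44 to 3.62 under the combination, nearly all of it CSF1R, while ITGAM had 4 to 17 counts, CD14 0 to 15 and the other 6 markers, PTPRC, LYZ, CD3D, CD3E, MS4A1 and NKG7, at most 2 in any library. The part of such cells in the results was not tested. In bulk RNA, fewer cells expressing a gene and less RNA per cell cannot be told apart.

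**Figure D1:**
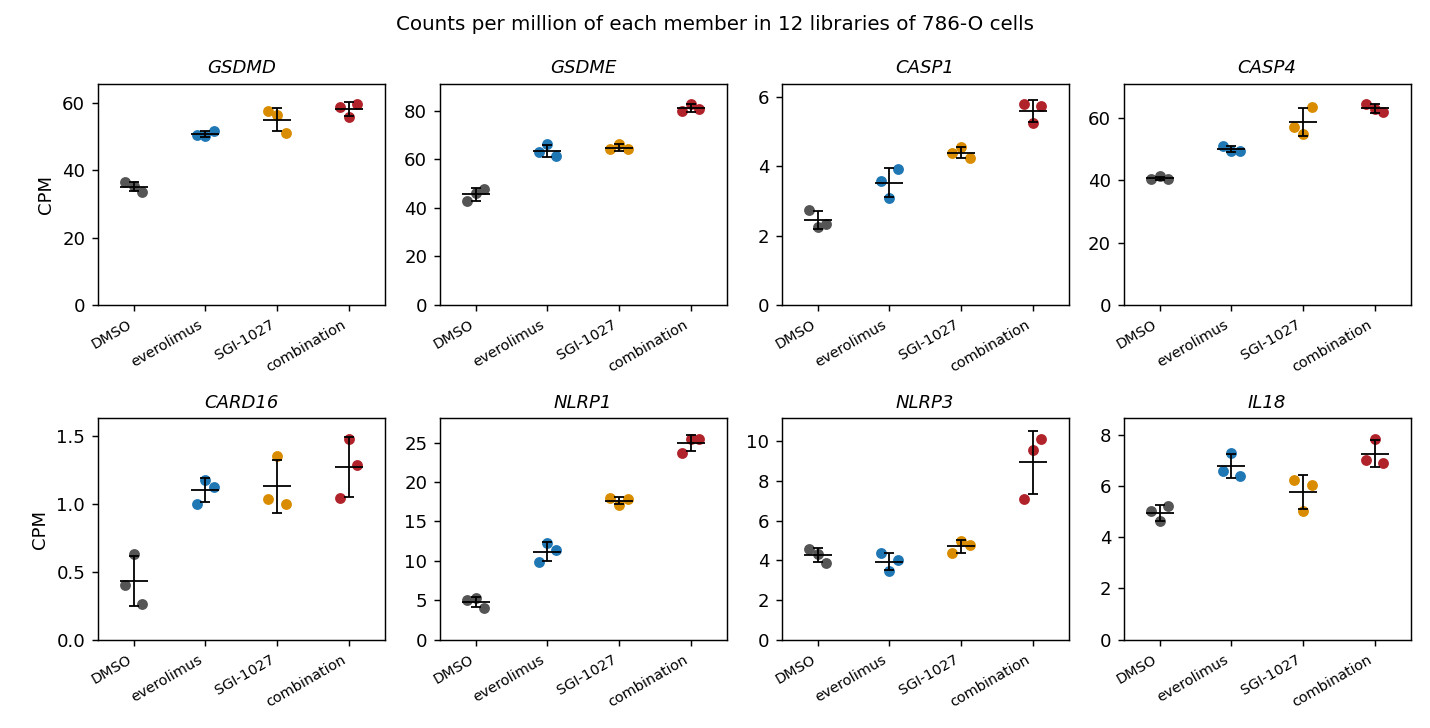
Library-scaled counts (CPM, vertical axes from 0) of the 8 measured genes in each of the 12 libraries, by treatment group. Points are libraries, the horizontal mark is the group mean and the bars are the SD of 3 libraries. NLRP1 climbs from 4.78 CPM in DMSO to 24.9 in the combination, whereas NLRP3 is raised in the combination alone among the treated groups.

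The gasdermins, which form the pores, were higher in every treated group than in DMSO. The GSDME level was 42.8, 46.0 and 47.9 CPM in the DMSO libraries. It was 63.1, 66.2 and 61.4 CPM in the everolimus libraries, 64.1, 66.5 and 64.1 in those of SGI-1027 and 80.1, 83.0 and 80.7 in those of the combination. No treated library overlapped the DMSO range, and the 3 combination libraries lay above all libraries of the single drugs. Against DMSO the GSDME difference was a log2 fold change of 0.48 (SE 0.05, edgeR adjusted p = 1.71e-07) under everolimus, 0.51 (SE 0.05, adjusted p = 5.53e-08) under SGI-1027 and 0.83 (SE 0.05, adjusted p = 4.60e-11) under the combination, the last a 1.78-fold increase.
GSDMD had 1358, 1451 and 1283 counts in the DMSO libraries, 1870, 2047 and 1980 in the everolimus libraries, 2279, 2084 and 1991 under SGI-1027 and 2252, 2224 and 2270 under the combination. Its mean level rose from 35.1 ± 1.43 CPM (SD, n = 3) in DMSO to 58.0 ± 2.02 in the combination. Here the combination libraries overlapped those of SGI-1027, unlike GSDME. Its log2 fold changes against DMSO were 0.53, 0.65 and 0.73 for everolimus, SGI-1027 and the combination (SE 0.05 each), with a largest edgeR adjusted p of 1.56e-07.

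Of the caspases, CASP1 and CASP4 were also raised by each treatment. CASP1, whose product matures interleukin-18 and cleaves gasdermin D, was at 2.74, 2.26 and 2.33 CPM in DMSO, 3.59, 3.08 and 3.92 under everolimus, 4.39, 4.55 and 4.23 under SGI-1027 and 5.81, 5.24 and 5.76 under the combination. The 4 groups did not overlap one another and stood in this order. The log2 fold changes of CASP1 against DMSO were 0.53 (SE 0.14, edgeR adjusted p = 0.00341), 0.85 (SE 0.14, adjusted p = 3.25e-05) and 1.20 (SE 0.13, adjusted p = 3.39e-07), the last a 2.30-fold increase from a low level of 89 to 102 counts per DMSO library.
CASP4, the sensor of cytosolic lipopolysaccharide, was at 40.2, 41.2 and 40.3 CPM in DMSO, 51.0, 49.3 and 49.5 under everolimus, 57.1, 54.9 and 63.6 under SGI-1027 and 64.5, 63.0 and 61.7 under the combination. The SGI-1027 value of 63.6 CPM, which lay inside the combination range, came from the replicate 3 library that stood apart. The CASP4 log2 fold changes against DMSO were 0.30, 0.53 and 0.64 (SE 0.05 each, largest edgeR adjusted p = 9.97e-05). The related inflammatory caspase gene CASP5 had 0 counts in every library.
CARD16 was the least expressed of the group, with 15, 26 and 10 counts in the DMSO libraries, 37, 48 and 43 under everolimus, 41, 50 and 39 under SGI-1027 and 40, 59 and 49 under the combination. All 9 treated libraries exceeded the highest DMSO library, and the 3 treated groups overlapped one another. Its log2 fold changes of 1.33 (SE 0.30, edgeR adjusted p = 0.00100), 1.37 (SE 0.30, adjusted p = 0.000652) and 1.54 (SE 0.29, adjusted p = 0.000163) had the widest intervals of the 8 genes, and the 95% interval of the last ran from 0.92 to 2.16. The summed counts of CASP1 and CARD16 differed by 0.69 under everolimus (adjusted p = 0.000108).

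The sensors NLRP1 and NLRP3 differed in which treatments raised them. NLRP1, which is activated when its own N-terminal part is degraded, had the largest change against DMSO of the 8 genes in the SGI-1027 and combination groups. Its level was 4.99, 5.27 and 4.08 CPM in DMSO, 9.84, 12.2 and 11.4 under everolimus, 18.0, 17.1 and 17.9 under SGI-1027 and 23.7, 25.5 and 25.4 under the combination. The 4 groups were fully separated. The log2 fold changes of NLRP1 against DMSO were 1.22 (SE 0.10, edgeR adjusted p = 1.09e-08), 1.88 (SE 0.10, adjusted p = 1.39e-11) and 2.38 (SE 0.09, adjusted p = 2.54e-13), or 2.33-fold, 3.68-fold and 5.20-fold.
NLRP3, which responds to potassium efflux and to lysosomal damage among other signals, was at 4.59, 4.30 and 3.87 CPM in DMSO, 4.35, 3.47 and 3.998 under everolimus, 4.36, 4.96 and 4.80 under SGI-1027 and 7.11, 9.56 and 10.1 under the combination. The single-drug libraries overlapped those of DMSO, and the lowest combination library was above the highest of the other 9. For everolimus the NLRP3 log2 fold change was -0.11 (95% interval -0.42 to 0.19, edgeR adjusted p = 0.528) and for SGI-1027 it was 0.14 (95% interval -0.15 to 0.44, adjusted p = 0.388), so neither passed and the intervals bound the change that these libraries leave possible. With the combination it was 1.07 (SE 0.14, adjusted p = 1.53e-06), a 2.10-fold increase.

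IL18, the cytokine of the group, had the smallest change of the 8 genes in the combination. Its level was 5.02, 4.61 and 5.24 CPM in DMSO, 6.59, 7.30 and 6.40 under everolimus, 6.23, 5.01 and 6.03 under SGI-1027 and 7.01, 7.85 and 6.89 under the combination. The SGI-1027 libraries overlapped the DMSO libraries through replicate 2 (5.01 CPM), and those of the other treated groups did not. The IL18 log2 fold change was 0.45 (SE 0.11, edgeR adjusted p = 0.00224) under everolimus, 0.22 (SE 0.11, adjusted p = 0.103) under SGI-1027 and 0.55 (SE 0.11, adjusted p = 0.000284) under the combination. Without SGI-1027 replicate 2, the SGI-1027 difference was 0.31 with an adjusted p of 0.0315.

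Counted over the group, everolimus raised 7 of 8 genes and lowered 0, against 27.2% of all tested genes called higher and 29.2% called lower. SGI-1027 raised 6 of 8 and lowered 0, where 32.0% of all genes were called higher and 30.6% lower. The combination raised 8 of 8, with a background of 32.8% higher and 33.4% lower. The median log2 fold change of the 8 genes was 0.51, 0.59 and 0.95 in these 3 comparisons, and that of all tested genes was 0.00, 0.02 and 0.01. At the study's cut-off of a log2 fold change of 1 or more in size with an unadjusted p under 0.05, CARD16 and NLRP1 passed in each single-drug group (3.89% of all genes passed upward with everolimus and 6.25% with SGI-1027), and CASP1, CARD16, NLRP1 and NLRP3 passed in the combination (7.25% of all genes upward and 2.71% downward). These 3 comparisons share the DMSO libraries and are not independent of one another. The counts of genes called were 7, 6 and 8 again when DMSO replicate 1 and SGI-1027 replicate 3 were both left out.

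**Figure D2:**
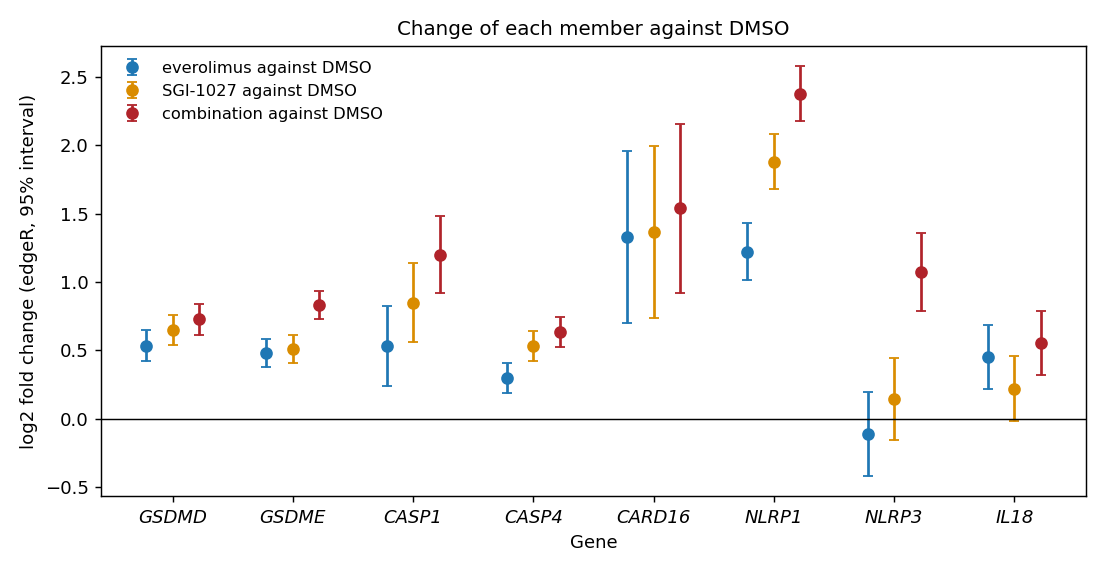
Log2 fold change of each gene against DMSO (vertical axis) for everolimus, SGI-1027 and the combination, from the edgeR fit of all 12 libraries. Bars are 95% intervals. NLRP1 reaches 2.38 in the combination, the NLRP3 intervals of the single drugs span 0, and the CARD16 intervals are the widest.

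Levels were compared between genes on the FPKM scale, which divides by gene length. CASP4 had the highest FPKM in every group, from 29.4 in DMSO to 46.3 in the combination, followed by GSDME (16.8 to 30.4) and GSDMD (15.0 to 25.1). In the SGI-1027 group the GSDME and GSDMD libraries overlapped, and in the other groups they did not. IL18 followed GSDMD in all groups, at 4.31 FPKM in DMSO and 6.39 in the combination. The sensors and CASP1 were lower still. In DMSO, NLRP3 (1.01 FPKM) and CASP1 (1.01 FPKM) overlapped and NLRP1 was below them at 0.781 FPKM, whereas in the combination NLRP1 was at 4.12 FPKM, above CASP1 (2.34) and NLRP3 (2.15), which overlapped each other. With everolimus, NLRP1 (1.83 FPKM) and CASP1 (1.46) overlapped and NLRP3 followed at 0.937. With SGI-1027, NLRP1 (2.88 FPKM), CASP1 (1.81) and NLRP3 (1.12) did not overlap. CARD16 was the lowest in each group, from 0.209 FPKM in DMSO to 0.623 in the combination.

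**Figure D3:**
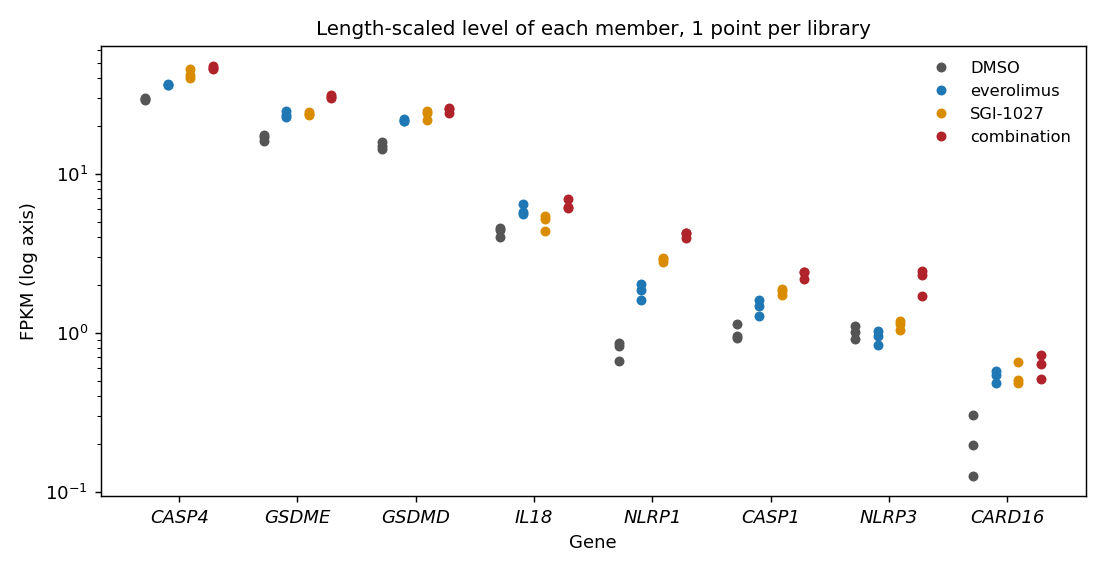
FPKM of each gene on a log axis, 1 point per library, coloured by treatment group, with genes from left to right by their order in the combination. CASP4, GSDME and GSDMD lie far above the sensors, and NLRP1 moves from below NLRP3 in DMSO (0.781 against 1.01 FPKM) to above it in the combination (4.12 against 2.15).

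The combination was then compared with each single drug. Against everolimus alone, 6 of 8 genes were higher and 0 lower, where 20.1% of all genes were called higher and 19.2% lower. The largest differences were those of NLRP3, with a log2 fold change of 1.18 (SE 0.14, edgeR adjusted p = 1.53e-06), and of NLRP1, with 1.16 (SE 0.09, adjusted p = 4.29e-09), the only members past a log2 fold change of 1 (2.44% of all genes upward). CASP1 differed by 0.67 (SE 0.13), GSDME by 0.35 (SE 0.05), CASP4 by 0.34 (SE 0.05) and GSDMD by 0.19 (SE 0.05, adjusted p = 0.00658). CARD16 and IL18 did not pass: their differences were 0.21 (95% interval -0.34 to 0.75) and 0.10 (95% interval -0.13 to 0.33). When the counts of CASP1 and CARD16 were summed, the sum, mostly CASP1, differed by 0.57 with an edgeR adjusted p of 0.000514.
Against SGI-1027 alone, 4 of 8 genes were higher and 0 lower, against 9.40% and 10.2% of all genes. They were NLRP3 at 0.93 (SE 0.13, edgeR adjusted p = 6.63e-05), NLRP1 at 0.50 (SE 0.08, adjusted p = 0.000253), GSDME at 0.32 (SE 0.05, adjusted p = 7.61e-05) and IL18 at 0.33 (SE 0.11, adjusted p = 0.0413). None of the 8 reached a log2 fold change of 1, as 0.428% of all genes did upward. GSDMD differed by 0.08 (95% interval -0.03 to 0.19), CASP4 by 0.11 (95% interval -0.000386 to 0.22), CARD16 by 0.17 (95% interval -0.37 to 0.72) and CASP1 by 0.35 (95% interval 0.08 to 0.62, edgeR adjusted p = 0.0602). No combination library overlapped the SGI-1027 range for CASP1, which held for 5 of the 8 genes and for 4443 of all 12841 tested genes. Leaving out SGI-1027 replicate 3 brought CASP4 past the threshold (0.17, adjusted p = 0.0115). IL18 lost its call without SGI-1027 replicate 2 (0.25, adjusted p = 0.166) and without each of combination replicates 1 to 3 (0.27 to 0.37, adjusted p from 0.0584 to 0.173).

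Additivity was tested on the log2 scale with an interaction contrast: both single-drug log2 fold changes were subtracted from that of the combination. A contrast of 0 thus means that the fold changes multiply. Additivity of the CPM levels themselves was not tested. The contrast was called above 0 for 1 of 8 genes and below 0 for 4 at an adjusted p under 0.05, against 23.6% and 22.1% of all genes. NLRP3 was the gene above the sum: the single-drug changes added to 0.03 and the combination reached 1.07, a difference of 1.04 (SE 0.20, edgeR adjusted p = 0.000328). NLRP1 fell below its log2 sum, with 2.38 observed against 3.10 and a difference of -0.72 (SE 0.13, adjusted p = 0.000184). Its mean level was 4.78 CPM in DMSO, 11.1 for everolimus, 17.6 for SGI-1027 and 24.9 for both drugs. In these means the CPM rise for both drugs was no smaller than the single-drug rises added together. The NLRP1 shortfall therefore applies to the log2 scale. GSDMD was also below its sum of 1.18 by -0.45 (SE 0.07, adjusted p = 8.16e-05). For CARD16 the difference was -1.16 (SE 0.40, adjusted p = 0.0237), and for CASP4 it was -0.19 (SE 0.07, adjusted p = 0.0409). NLRP3 and CARD16 were the members past an absolute difference of 1 (1.14% of all genes above and 4.63% below).
The last 2 calls were lost when certain libraries were left out. The CASP4 value was -0.12 (adjusted p = 0.120) with DMSO replicate 1 and SGI-1027 replicate 3 left out, and it lost its call in 9 of the 12 fits that left out 1 library, the exceptions being those without SGI-1027 replicates 1 and 2 and without combination replicate 1. CARD16 did not pass when DMSO replicate 3 (adjusted p = 0.0729), combination replicate 1 (0.0537) or SGI-1027 replicate 2 (0.0620) was left out. The sum of CASP1 and CARD16 counts gave -0.37 (edgeR adjusted p = 0.0752), but it is mostly CASP1 and does not test CARD16 alone. GSDME (-0.16, 95% interval -0.30 to -0.01, adjusted p = 0.0700), CASP1 (-0.18, 95% interval -0.58 to 0.22) and IL18 (-0.12, 95% interval -0.45 to 0.21) did not pass. The GSDME difference passed without DMSO replicate 3 (-0.19, adjusted p = 0.0330).

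**Figure D4:**
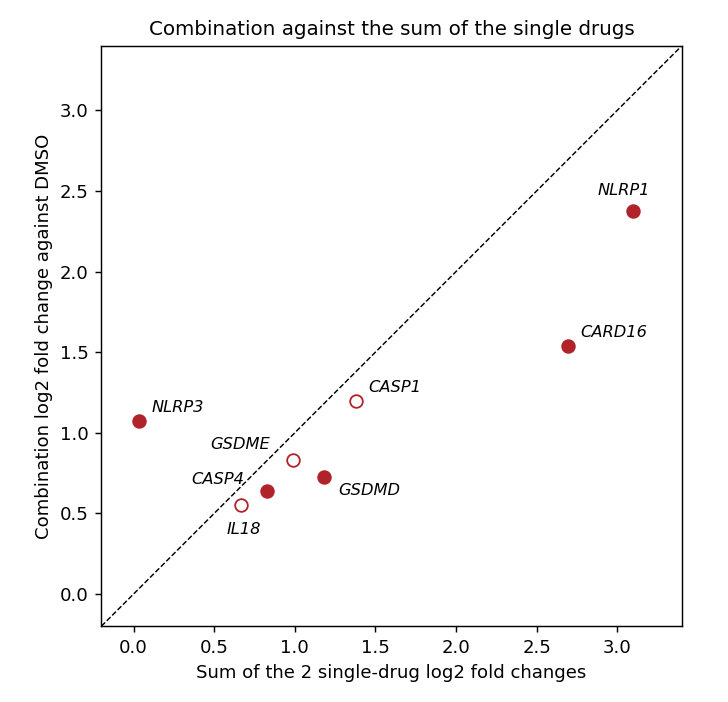
Combination log2 fold change against DMSO (vertical axis) plotted over the added changes of the 2 single drugs (horizontal axis) for each gene. The dashed line marks equality, and filled points have an edgeR adjusted p under 0.05 for the difference. NLRP3 is the only filled point above the line (1.07 against 0.03). NLRP1, CARD16, GSDMD and CASP4 are filled below it.

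The other genes of these pathways were taken from lists of 81 symbols, of which 73 were in the table and 55 were tested. In the combination, 21 of the 55 were higher and 18 lower than in DMSO, near the shares of all tested genes (32.8% and 33.4%), with a median log2 fold change of 0.08. With everolimus 15 were higher and 10 lower (27.2% and 29.2% of all genes), and with SGI-1027 20 were higher and 13 lower (32.0% and 30.6%). Against the sum of the single drugs, 7 were called above and 12 below (23.6% and 22.1%). The counts by list that follow are for the combination against DMSO, where 32.8% of all genes were higher and 33.4% lower, and such small lists are given as a description. Genes named next beyond IFI16, MEFV, GBP2 and GBP5 were chosen after their values were seen.
All 3 tested genes of the gasdermin and membrane rupture list were higher in the combination. GSDMB, another gasdermin, rose by a log2 fold change of 0.80 (SE 0.12, edgeR adjusted p = 1.28e-05). GSDMB also rose with everolimus alone (0.60, SE 0.12, adjusted p = 0.000419) and with SGI-1027 alone (0.99, SE 0.12, adjusted p = 1.18e-06). Its difference from the sum of the single drugs was -0.79 (SE 0.17, adjusted p = 0.000885). NINJ1, which ruptures the plasma membrane after gasdermin pores have formed, rose by 0.28 (SE 0.10, adjusted p = 0.0235). NINJ1 changed by -0.07 with everolimus (adjusted p = 0.607) and by 0.25 with SGI-1027 (adjusted p = 0.0450). PJVK, a gasdermin family gene expressed in hair cells, rose by 2.05 (SE 0.37, adjusted p = 8.13e-05) from a mean of 0.232 CPM. PJVK also rose with everolimus (1.80, SE 0.37, adjusted p = 0.000506) and with SGI-1027 (1.27, SE 0.40, adjusted p = 0.00970). GSDMA and GSDMC had at most 2 counts in a library and were not tested.
Of the other sensors, 2 of 4 tested were higher and 0 lower in the combination. IFI16, a nuclear DNA sensor, was at 69.7 CPM in DMSO (SD 0.991, n = 3), 72.0 under everolimus (SD 0.852), 133 under SGI-1027 (SD 9.53) and 145 under the combination (SD 8.47), a rise of 1.05 (SE 0.05, edgeR adjusted p = 4.54e-12) with the combination. MEFV, which encodes pyrin, rose by 1.01 (SE 0.23, adjusted p = 0.000933) with the combination and by 1.53 (SE 0.23, adjusted p = 1.13e-05) with SGI-1027 alone. With everolimus alone MEFV rose by 0.88 (SE 0.23, adjusted p = 0.00387). Its difference from the sum of the single drugs was -1.40 (SE 0.31, adjusted p = 0.00135). AIM2 had at most 6 counts and NLRC4 at most 1, and neither was tested.
Of 14 tested inflammasome regulators, 8 were higher and 4 lower, beside 32.8% and 33.4% of all genes. The guanylate-binding protein gene GBP5 rose by 1.28 (SE 0.16, edgeR adjusted p = 1.15e-06) and its relative GBP2 fell, with a log2 fold change of -1.03 (SE 0.11, adjusted p = 2.69e-07). GBP5 also rose with everolimus (0.72, SE 0.16, adjusted p = 0.00114) and with SGI-1027 (0.87, SE 0.16, adjusted p = 0.000133). GBP2 was at 7.51 CPM in DMSO, 7.58 under everolimus, 7.14 under SGI-1027 and 3.67 under the combination, and its single-drug log2 fold changes were 0.01 (adjusted p = 0.925) and -0.07 (adjusted p = 0.568). Its difference from the sum of the single drugs was -0.97 (SE 0.16, adjusted p = 6.38e-05).
Of the interleukin-1 family and its receptors, 2 of 8 tested genes were higher and 3 lower, beside 32.8% and 33.4% of all genes. IL36G, an epithelial cytokine of the family, was the higher of these with the larger change, at 2.33 (SE 0.49, edgeR adjusted p = 0.000378) from 0.130 CPM in DMSO to 0.660 in the combination. It did not pass under everolimus (0.61, SE 0.60, adjusted p = 0.403) or SGI-1027 (0.62, SE 0.60, adjusted p = 0.381). It had only 1 to 31 counts per library, so a single-drug change is not excluded. Its difference from the sum of the single drugs did not pass (1.11, 95% interval -0.53 to 2.74, adjusted p = 0.260). IL1B, the other classical caspase-1 substrate, was at 1.35 CPM in DMSO and 0.916 in the combination, a log2 fold change of -0.57 (SE 0.31, adjusted p = 0.121), and IL1A had 0 counts in every library.
The apoptotic caspases and their regulators had 8 of 14 tested genes lower and 2 higher, beside 33.4% and 32.8% of all genes, with a median log2 fold change of -0.28. CASP8, the initiator downstream of death receptors, rose by 0.45 (SE 0.06, edgeR adjusted p = 1.97e-06). CASP8 changed by 0.12 with everolimus (adjusted p = 0.0992) and by 0.38 with SGI-1027 (adjusted p = 1.95e-05). Of 12 genes of ESCRT membrane repair, which removes gasdermin pores from the membrane, 4 were higher and 3 lower, near the shares of all genes. The remaining list, of other inflammatory caspases and CARD-only or PYD-only proteins, had 0 tested genes.

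**Figure D5:**
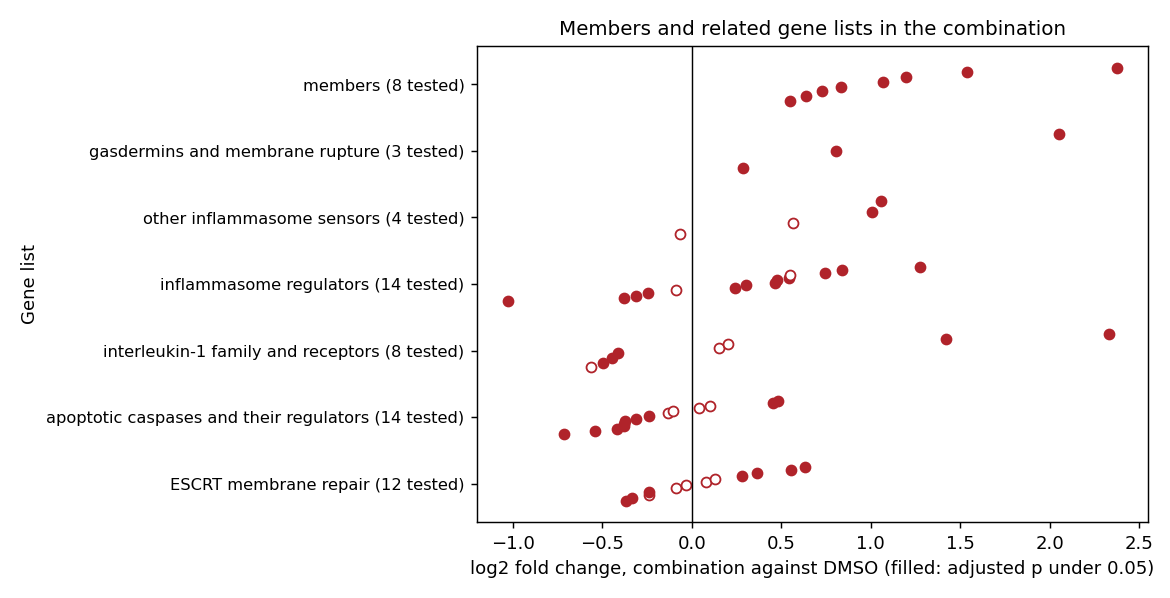
Log2 fold change in the combination against DMSO (horizontal axis) of the 8 described genes (top row, members) and of each tested gene of the related lists (rows, 1 point per gene). Filled points have an edgeR adjusted p under 0.05. The top row and the gasdermin and membrane rupture list lie to the right of 0, and most points of the apoptotic caspase list lie to its left.

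The genes most like GSDME and CASP1 were sought by the Pearson correlation of log2 CPM over the 12 libraries, among the 11458 tested genes averaging 50 counts or more. The libraries share the same 4 treatments, so these values describe a shared order of groups. For GSDME they were CD59, a membrane inhibitor of complement (r = 0.993), AFAP1 (r = 0.991) and LAMP1, a lysosomal membrane glycoprotein (r = 0.989). For CASP1 they were MPG, a DNA glycosylase (r = 0.986), DNASE2, the acid nuclease of lysosomes (r = 0.982), and TRIML2 (r = 0.982). The log2 fold changes of CD59 were 0.57, 0.67 and 1.01 with everolimus, SGI-1027 and the combination, and those of DNASE2 were 0.61, 0.91 and 1.22, beside 0.48, 0.51 and 0.83 for GSDME and 0.53, 0.85 and 1.20 for CASP1.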

How the data were processed

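RNA sequencing was analysed from 12 libraries of 786-O cells, 3 in each of 4 groups. The authors deposited raw counts per gene symbol, whole numbers that are not normalized, and FPKM values for each of them, which divide fragments by transcript length and sequencing depth. The labels name an RNeasy extraction with a SMARTER library kit, whereas the study's methods name TRIzol and a stranded TruSeq kit. The submitters' processing notes list the mouse builds GRCm38 and mm10 although the cells and gene symbols are human. The aligner, the counting program and the annotation are not given in the sources used here.

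The count test used edgeR 4.0.16 under R 4.3.3. Genes were filtered with filterByExpr, libraries were scaled with TMM factors (0.990 to 1.01), and all 12 libraries entered 1 quasi-likelihood fit (prior count 0.125). P-values were adjusted by Benjamini-Hochberg over all 12841 tested genes, and a gene was called at an adjusted p under 0.05. CPM values use the scaled library sizes. With totals of at least 37046231 counts, precision is set by the spread of 3 libraries and, for low counts such as those of CARD16 (10 to 59), CASP1 (89 to 223), NLRP3 (142 to 386) and IL18 (185 to 313), by counting error as well. Alternatives were DESeq2 1.42.0, RLE and upper-quartile scaling, no filter, at least 10 counts in every library, a replicate term, fits of the compared groups alone, limma 3.58.1 on log2(FPKM + 1) and log2(FPKM + 0.1), the study's cut-off, CASP1 and CARD16 summed, and leaving out each library. Leaving out DMSO replicate 1 and SGI-1027 replicate 3 together was added after seeing the data. On simulated counts, edgeR recovered 100 of 100 large and 98 of 100 small changes between the combination and DMSO, with 10 false calls among 12583 tested genes. For the interaction it recovered 99 of 100 and 89 of 100, with 8 false calls. The simulation changed far fewer genes than were called in these data, only in the combination group and only among well-counted genes. Its small changes exceeded many member differences given here. Recovery of weaker changes or of low-count genes such as CARD16 was not tested.

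The 9 genes, the related lists and the tests were chosen with earlier results of these data known. Genes named from the lists were up to 4 per list with an adjusted p under 0.05, a log2 fold change of 1 or more in size and a mean of at least 50 counts in the combination against DMSO, smallest p first. For GSDME and CASP1, the 3 other tested genes with the highest correlation were named. Sequences came from the RefSeq promoter table (GRCh38.p14) and GENCODE v29 transcripts, searched with Python 3.11. Some genes of the lists are counted but not reported by name here.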

Additional observations from a re-analysis of the deposited data

Results flagged for a closer look

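Of the 8 genes, 5 were singled out because the log2 fold change given by 1 drug differed with and without the other. The difference was judged by the interaction term of the edgeR fit over all 12 libraries. That term was called above 0 for 1 of the 8 genes and below 0 for 4. Among all tested genes it was called above 0 for 23.6% and below 0 for 22.1%, so such a call was common. The combination log2 fold change less those of both single drugs was 1.04 for NLRP3, -0.72 for NLRP1, -0.45 for GSDMD, -1.16 for CARD16 and -0.19 for CASP4. For NLRP3, NLRP1 and GSDMD the edgeR adjusted p was at most 0.00153 in each of the 12 fits that left out 1 library. The CARD16 value lost its call in 3 of these fits and the CASP4 value in 9. The everolimus dose of the single-drug libraries is given as 5 µM in one label and 10 µM in another.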

How the results depend on the processing

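No member's log2 fold change turned direction in any alternative. Of 180 counts of called genes under the alternatives, 170 stayed within 1.5 times the main count, and the other 10 were those at the study's cut-off, a log2 fold change of 1 or more in size with an unadjusted p under 0.05. By construction it drops smaller changes: the members passing were 2 for everolimus, 2 for SGI-1027, 4 for the combination, 2 for the combination against everolimus, 0 against SGI-1027 and 2 for the interaction, and the other pathway genes passing were 2, 2 and 7 against DMSO and 2 for the interaction. Of all genes, 3.89%, 6.25% and 7.25% passed upward against DMSO, and 2.71% passed downward with the combination. The upward shares were 2.44% for the combination against everolimus and 0.428% against SGI-1027. For the interaction, 1.14% passed above and 4.63% below. Of 484 member values under the other alternatives, 471 kept their side of the threshold, and of 336 with 1 library left out 317 did. Sizes moved more: on the log2(FPKM + 1) scale, where the pseudocount shrinks low genes, the combination against DMSO was 1.52 for NLRP1, 0.64 for NLRP3, 0.74 for CASP1 and 0.43 for CARD16, and the interaction was -0.27 for NLRP1, 0.62 for NLRP3 and -0.28 for CARD16. The CASP1 difference between the combination and SGI-1027 passed with DESeq2 (adjusted p = 0.0455) and with limma-trend on log2(FPKM + 1) (0.0101) and log2(FPKM + 0.1) (0.0228). Under upper-quartile scaling, IL18 passed with SGI-1027 (0.27, adjusted p = 0.0433) and the GSDME interaction passed (-0.23, adjusted p = 0.0102). The CASP4 interaction did not pass without the filter on low counts (adjusted p = 0.0786). The causes were not tested. No pairing by replicate number was seen: over 18 same-numbered pairs the correlation of deviations ran from -0.176 to 0.0359. No label states whether the numbers mark a shared culture or batch. The highest correlation between groups, 0.232, was between DMSO replicate 1 and SGI-1027 replicate 3, the libraries that stood apart, and its cause was not tested. With the replicate block, 7, 6 and 8 members were called against DMSO, 6 and 3 for the combination against everolimus and SGI-1027 and 4 for the interaction. The calls lost were IL18 against SGI-1027 (0.33, adjusted p = 0.0636) and the CASP4 interaction (-0.19, adjusted p = 0.0588). Shares of all genes called with the replicate block are not given here. In the main fit, 27.2%, 32.0% and 32.8% of all genes were called higher against DMSO and 29.2%, 30.6% and 33.4% lower. In a fit of the compared groups alone, IL18 against SGI-1027 had an adjusted p of 0.0723. With 1 library left out, the members called numbered 6 to 7 with SGI-1027, 3 to 5 for the combination against SGI-1027 and 4 to 5 for the interaction. No scaling moved the median of all genes by more than 0.074. Low counts limit the precision of CARD16 most.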
